A study of Mus musculus with 4 samples.

Results

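The genes described here are 30 genes of cholesterol synthesis, uptake and control by SREBP, out of 15768 genes in the deposited gene table. They were taken by symbol from a list, and all 30 were present in the table and passed the expression filter that left 12222 genes for testing. The list falls into 4 groups by role: 8 enzymes of the mevalonate and isoprenoid steps, 11 enzymes from squalene to cholesterol, 6 regulators of SREBP and of the sterol receptor LXR, and 5 genes of sterol uptake, transport and efflux. The cells were JoMa1.3, a line of mouse neural crest progenitors with conditional immortalisation and a wild-type genotype, and the study asked what lies downstream of a loss of Lkb1. In the Lkb1 siRNA group the cells received pooled siRNAs targeting Stk11, which encodes the kinase LKB1, and in the control siRNA group they received a non-targeting pool. Both pools were used at 60 nM for 72 h, in a medium that held chick embryo extract, and each group had 2 libraries, 1 in batch 1 and 1 in batch 2. All libraries came from 1 cell line, and 2 transfection reagents are named in the labels with no map to the cultures.

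Cholesterol is built from acetyl-CoA through mevalonate, isoprenoid units, squalene and a series of sterols. When sterols in the endoplasmic reticulum run low, SCAP carries the SREBP transcription factors to the Golgi, where proteases release their active part, and INSIG proteins hold them back when sterols are plentiful. SREBP-2 mainly drives the enzymes of cholesterol synthesis, while LXR, bound by oxysterols, drives genes that export sterol or limit its uptake. LKB1 activates AMPK, a kinase known to inhibit enzymes of sterol and fatty acid synthesis and the processing of SREBP.

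Gene counts summed to 17426719 and 18496820 in the Lkb1 siRNA libraries and to 18718435 and 19324675 in the control siRNA libraries. Throughout, values per library are CPM (counts scaled to library size, with TMM factors), with batch 1 before batch 2. Stk11 itself was at 81.4 and 82.0 CPM in the Lkb1 siRNA libraries, against 121.5 and 117.9 CPM in the control siRNA libraries. It fell by 0.55 on the log2 scale (SE 0.0659, edgeR adjusted p = 0.0378); its change was -31.7%. Neural crest markers summed to between 198.0 and 214.7 TPM (a level per transcript length) in the Lkb1 siRNA libraries and between 198.9 and 205.0 TPM in the control siRNA libraries, over 7 of 9 listed genes. Snai2, Twist1, Pax3, Sox9 and Ets1 made up nearly all of that sum, whereas Tfap2a and Ngfr were at no more than 3.45 TPM in any library, and Sox10 and Foxd3 were not analysed here. With batch as a replicate block Pax3 was higher by 0.19 (edgeR adjusted p = 0.0177) and Snai2 lower, with a log2 fold change of -0.17 (0.0157), and neither passed without the block (0.507 and 0.503).

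Most of the 30 sterol genes were lower after Lkb1 siRNA, by small amounts, and the enzymes were lower more uniformly than the regulators and transporters. The log2 fold change, Lkb1 siRNA minus control siRNA, was negative for 18 of 19 enzymes, with a median of -0.18, and for 7 of 11 regulators and transport genes, with a median of -0.06. Over all 12222 genes tested 49.8% were lower and the median was 0.0. Both Lkb1 siRNA libraries lay below both control siRNA libraries for 17 of 19 enzymes and 6 of 11 other members, and above both for 1 enzyme and 4 other members. Of all genes tested 21.4% were lower without overlap and 21.2% were higher without overlap. These overlaps were counted in CPM. In TPM the groups overlapped for Mvk, Pmvk, Sc5d, Srebf1, Stard4 and Npc2, and the share over all genes was not counted. These medians and counts describe the list; the difference between enzymes and the other members was not tested. In bulk samples fewer cells of a type and less RNA per cell cannot be told apart.

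No member passed the threshold in edgeR's quasi-likelihood test without a batch term, in which 0.0491% of all genes were called lower (6 genes) and 0.0327% were called higher (4 genes). At an unadjusted p under 0.05 the same test marked 15 members as lower and 2 as higher, against 5.53% and 5.61% of all genes. DESeq2 called 2 members lower, Mvd and Fdps, and none higher, against 0.254% of all genes called lower. The labels put each library in a batch, and with batch as a replicate block edgeR called 16 of 30 members lower and 3 higher, against 6.99% and 6.59% of all genes. The 16 were 12 enzymes, 2 regulators and 2 transport genes, and the 3 were Ggps1, Abca1 and Mylip. DESeq2 with the same block called 4 of them lower, Acat2, Mvd, Idi1 and Fdps, and none higher, against 0.879% and 0.561% of the 8194 genes to which it gave an adjusted p. The other 12 genes lower in the blocked edgeR fit had adjusted p-values between 0.0544 and 0.866 in DESeq2 with the block, so those calls depend on the tool. DESeq2 with the block gave no adjusted p to Abca1, Mylip and Tm7sf2, and without the block it called none of these 3. Of the 27 members with a mean of at least 20 CPM, a cut chosen after the data were seen, the blocked fit called the same 16 lower, against 8.76% of genes above that level. Where a gene is said below to have fallen or risen, the call is that of edgeR's blocked fit alone unless DESeq2 is named. The fold change and SE given are those of the fit without the block. With 2 libraries a group the blocked fit has little to judge the spread of a single gene by, and borrows spread from other genes. Its SEs were 0.0677 for Mvd, 0.0664 for Pmvk and 0.0978 for Mylip, against 0.137, 0.139 and 0.213 in DESeq2 with the block. A small adjusted p from it is therefore no measure of how well the batches repeat.

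**Figure D1:**
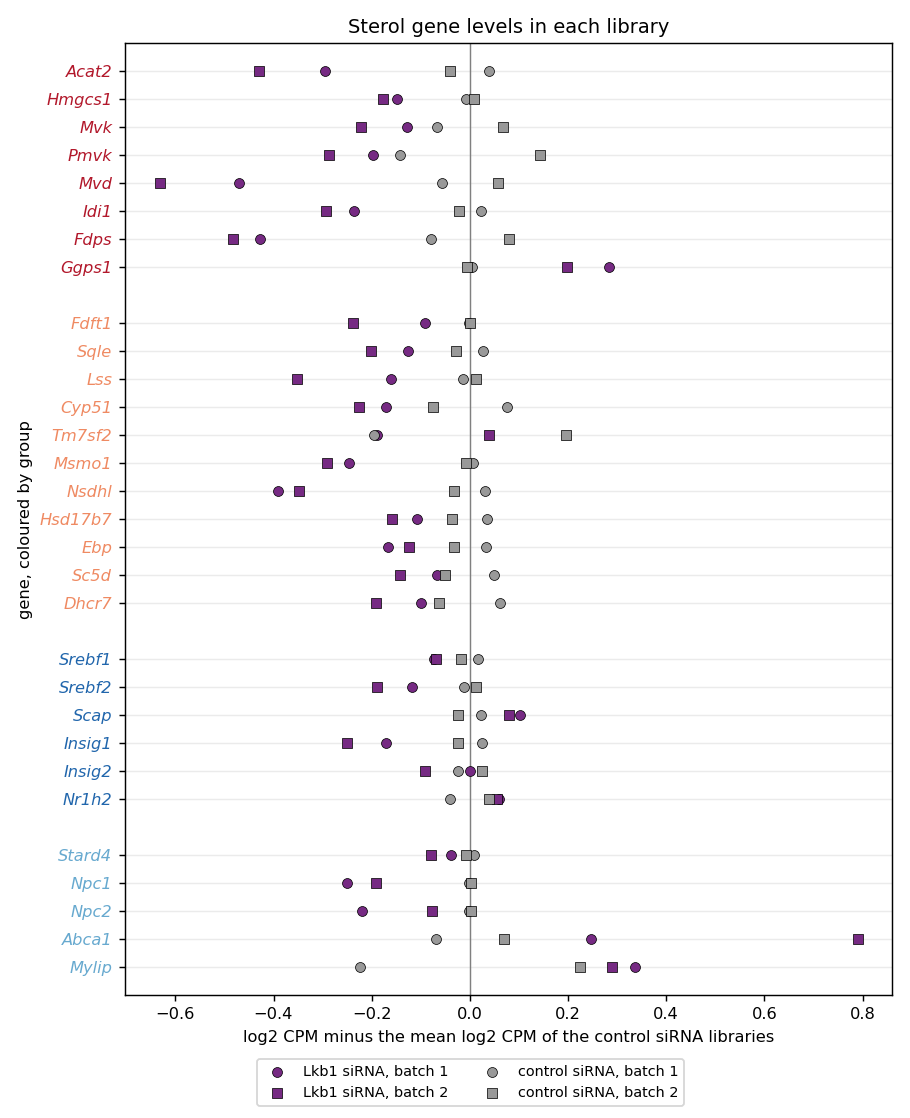
Level of each of the 30 sterol genes in each library, as log2 CPM minus the mean log2 CPM of the control siRNA libraries. Purple points are Lkb1 siRNA, grey points are control siRNA, circles are batch 1 and squares are batch 2; gene names are coloured by group. Both purple points lie left of both grey points for 23 genes and right of both for 5.

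The mevalonate steps held the largest decreases among the members. Mvd, the decarboxylase that turns mevalonate diphosphate into isopentenyl diphosphate, was at 38.2 and 34.2 CPM in the Lkb1 siRNA libraries, against 50.9 and 55.1 CPM in the control siRNA libraries. Fdps, which joins isoprenoid units into farnesyl diphosphate, was at 210.3 and 202.5 CPM after Lkb1 siRNA, against 267.7 and 299.1 CPM after control siRNA. The groups did not overlap for either gene, and their gap was wider in batch 2. Mvd fell by 0.55 (SE 0.0881), or -31.8% (95% confidence interval -40.5 to -21.7%), and its edgeR adjusted p was 0.0844 without the block and 1.06e-13 with it. Fdps fell by 0.46 (SE 0.0751), or -27.2% (interval -35.2 to -18.1%), and its edgeR adjusted p was 0.0847 without the block and 3.5e-18 with it. DESeq2 gave adjusted p-values of 0.00656 for Mvd and 0.000647 for Fdps without the block, and of 0.0083 and 3.73e-06 with it. The change in Mvd was as large as that in the siRNA target Stk11 on the log2 scale.

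The enzymes before and between these steps were lower by less. Acat2, a cytosolic thiolase that makes acetoacetyl-CoA, was at 103.4 and 94.2 CPM in the Lkb1 siRNA libraries, against 130.4 and 123.4 CPM in the control siRNA libraries. Idi1, which interconverts the isoprenoid units, was at 194.7 and 187.0 CPM after Lkb1 siRNA, against 232.9 and 225.6 CPM after control siRNA. Hmgcs1, the synthase of HMG-CoA, was at 339.0 and 332.2 CPM after Lkb1 siRNA, against 373.5 and 378.0 CPM after control siRNA. In all 3 genes the libraries of the groups stood apart and the batches gave nearly the same change. Acat2 fell by 0.36 (SE 0.074; edgeR adjusted p = 0.134 without the block and 2.5e-10 with it), Idi1 by 0.26 (SE 0.0663; 0.214 and 3.66e-06) and Hmgcs1 by 0.16 (SE 0.0639; 0.388 and 0.00939). DESeq2 with the block gave adjusted p-values of 0.0096 for Acat2, 0.0352 for Idi1 and 0.315 for Hmgcs1, so the call of Hmgcs1 was lost.

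Mvk and Pmvk, the kinases that add phosphates to mevalonate in turn, differed more between batches. Pmvk was at 43.7 and 41.1 CPM in the Lkb1 siRNA libraries, against 45.4 and 55.3 CPM in the control siRNA libraries. Mvk was at 41.7 and 39.1 CPM after Lkb1 siRNA, against 43.6 and 47.8 CPM after control siRNA. The control siRNA library of batch 2 was the highest for both. The log2 difference within a batch was -0.06 for both genes in batch 1, and in batch 2 it was -0.43 for Pmvk and -0.29 for Mvk. Pmvk fell in the blocked fit (edgeR adjusted p = 0.408 without the block and 0.00328 with it), and Mvk did not pass either test (0.483 and 0.0621). The call of Pmvk was lost in DESeq2 with the block (adjusted p = 0.732), and its fold change was -0.385 without control replicate 1 and -0.10 without control replicate 2.

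Ggps1 was the only enzyme among the members that was higher. It makes geranylgeranyl diphosphate, the lipid that anchors many small GTPases, from farnesyl diphosphate, and so stands on a branch away from sterols. Ggps1 was at 35.4 and 33.3 CPM in the Lkb1 siRNA libraries, against 29.1 and 28.9 CPM in the control siRNA libraries. The groups did not overlap, and Ggps1 rose by 0.24 in log2 (SE 0.0864; edgeR adjusted p = 0.358 without the block and 0.017 with it). The call was lost in DESeq2 with the block (adjusted p = 0.794).

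Promoter sequences are shown for 4 members whose windows hold the letters of a motif tied to sterol control or, for Abca1, an E-box. Each window runs from 250 bases before to 50 bases after a start site annotated by RefSeq, on GRCm38.p6, and is written 5′ to 3′ on the strand of the gene. Hmgcs1 was shown because it alone, among the 25 members with a window, held the sterol regulatory element core TCACNCCAC. The other 3 were chosen after the matches were seen. In Hmgcs1 (chr13:119690101-119690400, + strand) the capitals mark that core, which begins at position -137 from the start site. In Nsdhl (chrX:72918271-72918570, + strand) they mark a looser core, TCACNCNAC, at position -205. In Mvd (chr8:122443373-122443672, - strand) they mark 2 NF-Y boxes, CCAAT or its reverse complement, at positions -60 and -27. In Abca1 (chr4:53159846-53160145, - strand) they mark an E-box, CACGTG, at position -147.
Hmgcs1: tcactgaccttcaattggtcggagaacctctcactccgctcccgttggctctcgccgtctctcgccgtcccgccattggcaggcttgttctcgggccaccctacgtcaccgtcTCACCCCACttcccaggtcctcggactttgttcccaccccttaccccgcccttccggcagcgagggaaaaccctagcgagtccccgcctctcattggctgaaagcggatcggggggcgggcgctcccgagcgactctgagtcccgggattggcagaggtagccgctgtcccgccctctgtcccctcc
Nsdhl: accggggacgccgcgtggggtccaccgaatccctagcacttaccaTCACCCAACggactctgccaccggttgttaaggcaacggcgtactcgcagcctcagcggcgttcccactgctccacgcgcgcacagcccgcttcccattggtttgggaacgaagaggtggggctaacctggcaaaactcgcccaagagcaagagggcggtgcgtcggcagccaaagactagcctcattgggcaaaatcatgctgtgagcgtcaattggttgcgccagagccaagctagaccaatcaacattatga
Mvd: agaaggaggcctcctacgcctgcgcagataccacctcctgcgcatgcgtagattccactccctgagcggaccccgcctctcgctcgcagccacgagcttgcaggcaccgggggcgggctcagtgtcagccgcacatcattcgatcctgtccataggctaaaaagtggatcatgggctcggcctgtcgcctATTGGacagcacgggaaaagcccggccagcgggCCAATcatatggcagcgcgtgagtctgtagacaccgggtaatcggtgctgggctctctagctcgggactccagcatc
Abca1: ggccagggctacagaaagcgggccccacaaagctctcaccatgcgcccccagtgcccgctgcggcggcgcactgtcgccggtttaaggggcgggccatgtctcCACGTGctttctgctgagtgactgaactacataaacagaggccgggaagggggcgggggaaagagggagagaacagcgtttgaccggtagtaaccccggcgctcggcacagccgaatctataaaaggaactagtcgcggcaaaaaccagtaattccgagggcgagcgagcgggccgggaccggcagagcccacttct

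A window was given for 25 of the 30 members, and both strands were searched. Fdps, Fdft1, Sqle, Npc1 and Stard4 had no window, so nothing is known here of their motifs. The core TCACNCCAC was in 1 member and in 1.35% of the 9761 tested genes with a window, and the looser core, which takes in every match of the stricter one, was in 2 members and in 3.29% of those genes. The NF-Y box, bound by a factor known to act beside SREBP, was in the windows of 15 of 16 enzymes, all but Acat2, and of 6 of 9 regulators and transport genes, against 43.98% of tested genes. Mvd, with the largest decrease, and Ggps1, which was higher, both held it. The Sp1 box GGGCGG was in 14 of 16 enzymes and 8 of 9 other members, against 69.85% of tested genes. The E-box was in 3 of 16 enzymes and 3 of 9 other members, against 11.8%. A match of letters is a description and not a bound site.

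**Figure D2:**
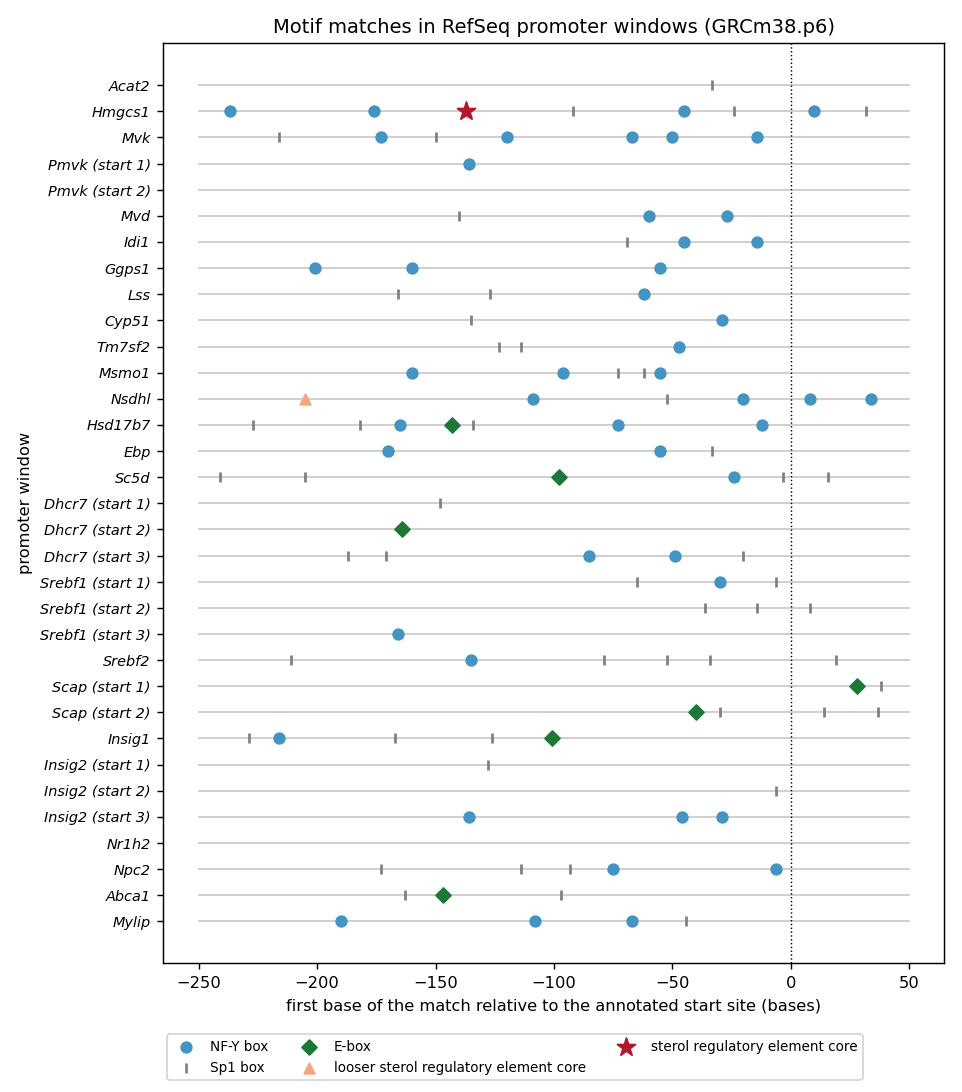
Motif matches on both strands in the RefSeq promoter windows of the 25 members that have one, placed by distance in bases from the annotated start site (dotted line); genes with several annotated starts have a line for each. The sterol regulatory element core (star) is in Hmgcs1 only and lies on its own looser match, and NF-Y boxes (blue circles) lie in the windows of 15 of the 16 enzymes.

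From squalene to cholesterol all 11 enzymes had negative fold changes, between -0.37 and -0.08, and 6 of them fell in the blocked fit. Nsdhl, which removes a carboxyl group from the sterol ring, was at 59.8 and 61.6 CPM in the Lkb1 siRNA libraries, against 80.2 and 76.7 CPM in the control siRNA libraries. Msmo1, the methylsterol oxidase of the same demethylation, was at 112.4 and 108.8 CPM after Lkb1 siRNA, against 133.9 and 132.6 CPM after control siRNA. The groups stood apart for both genes, with like changes in the 2 batches. Nsdhl fell by 0.37 (SE 0.0695; edgeR adjusted p = 0.118 without the block and 3.4e-08 with it) and Msmo1 by 0.27 (SE 0.0652; 0.196 and 5.53e-06). Both calls were lost in DESeq2 with the block (adjusted p 0.0544 for Nsdhl and 0.111 for Msmo1).

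The enzymes that make and close squalene were lower by less. Fdft1, squalene synthase, was at 138.3 and 125.0 CPM in the Lkb1 siRNA libraries, against 147.3 and 147.6 CPM in the control siRNA libraries. Sqle, squalene epoxidase and a rate-controlling enzyme of the pathway, was at 194.6 and 184.6 CPM after Lkb1 siRNA, against 216.3 and 208.3 CPM after control siRNA. Lss, which closes the epoxide into lanosterol, was at 105.8 and 92.7 CPM after Lkb1 siRNA, against 117.2 and 119.4 CPM after control siRNA. For each of the 3 the Lkb1 siRNA library of batch 2 was the lowest of all. Fdft1 and Sqle each fell by 0.16 (SE 0.0725 and 0.0676; blocked edgeR adjusted p 0.0106 and 0.00996), and Lss fell by 0.25 (SE 0.0783; 3.14e-05 with the block). Cyp51, lanosterol demethylase, was at 218.0 and 209.7 CPM after Lkb1 siRNA, against 258.5 and 232.8 CPM after control siRNA, and fell by 0.20 (SE 0.0741; 0.00108 with the block). Without the block the adjusted p of these 4 genes lay between 0.311 and 0.448. All 4 calls were lost in DESeq2 with the block, with adjusted p-values of 0.627 for Fdft1, 0.471 for Sqle, 0.246 for Lss and 0.24 for Cyp51. Without Lkb1 replicate 2 the fold change was -0.09 for Fdft1 and -0.16 for Lss, and without control replicate 1 it was -0.12 for Cyp51.

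The remaining sterol enzymes did not pass either edgeR test. Hsd17b7, the sterol ketone reductase, was at 28.0 and 27.0 CPM in the Lkb1 siRNA libraries, against 30.9 and 29.4 CPM in the control siRNA libraries. Ebp, the sterol isomerase, was at 46.7 and 48.1 CPM after Lkb1 siRNA, against 53.6 and 51.2 CPM after control siRNA. Sc5d, a sterol desaturase, was at 71.8 and 68.2 CPM after Lkb1 siRNA, against 77.9 and 72.7 CPM after control siRNA. Dhcr7, which reduces 7-dehydrocholesterol to cholesterol, was at 66.1 and 62.0 CPM after Lkb1 siRNA, against 73.9 and 67.8 CPM after control siRNA. For these 4 genes the groups did not overlap in CPM, and the log2 fold changes lay between -0.15 and -0.11. Their edgeR adjusted p with the block lay between 0.0785 and 0.271. Tm7sf2, a sterol reductase and the least abundant enzyme, was at 5.92 and 6.93 CPM after Lkb1 siRNA, against 5.89 and 7.73 CPM after control siRNA, and its groups overlapped (log2 fold change -0.08, SE 0.189).

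**Figure D3:**
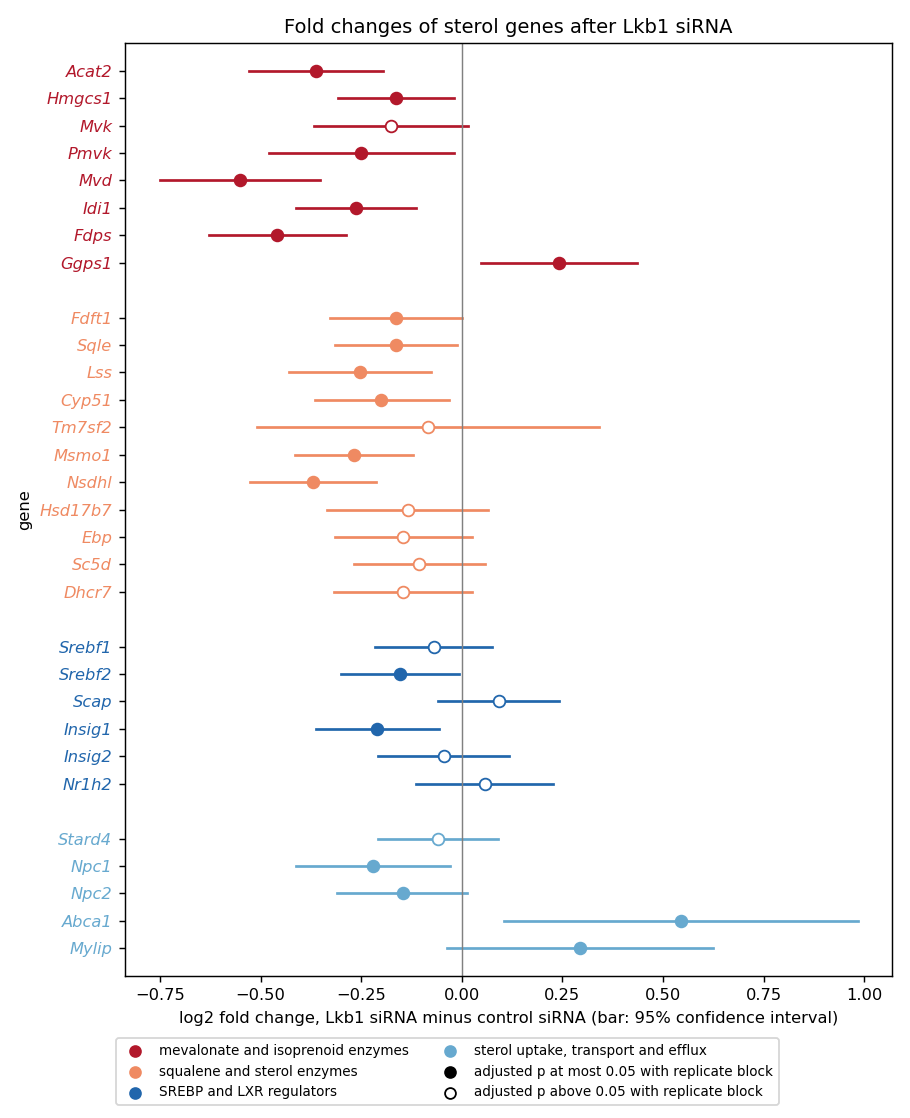
Log2 fold change of each member, Lkb1 siRNA minus control siRNA, with its 95% confidence interval (bar) in edgeR's fit without the block, coloured by group. Filled points have an adjusted p at or under 0.05 in the fit with the replicate block, 19 of 30. Filled or open, 18 of the 19 enzymes lie left of 0. The filled regulators and transport genes left of 0 are Insig1, Srebf2, Npc1 and Npc2. The filled points to the right are Ggps1, Abca1 and Mylip.

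Summed over the 19 enzymes, the sterol pathway held 1518 and 1472 TPM in the Lkb1 siRNA libraries, against 1704 and 1787 TPM in the control siRNA libraries. That is a difference of -10.9% in batch 1 and -17.7% in batch 2. The mevalonate enzymes gave -12.1% and -22.2%, and the enzymes from squalene on gave -9.25% and -10.4%. The regulators summed to 375.5 and 366.3 TPM after Lkb1 siRNA, against 374.6 and 387.2 TPM after control siRNA, and the transport genes to 196.4 and 214.2 TPM, against 209.2 and 217.7 TPM. The Lkb1 siRNA and control siRNA sums overlapped for both of these groups. Fdps, with a mean of 388.6 TPM, was the most abundant of the 30, and Abca1 was the least abundant at 1.29 TPM.

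Smooth muscle markers were also lower after Lkb1 siRNA. Summed over 5 of 5 listed genes they were at 478.2 to 504.0 TPM in the Lkb1 siRNA libraries and at 583.1 to 619.7 TPM in the control siRNA libraries. Acta2 and Tagln gave nearly all of this, with log2 fold changes of -0.41 and -0.31 (edgeR adjusted p 0.0908 and 0.227 without the block, 1.59e-14 and 4.99e-08 with it), while Cnn1 and Myh11, which define mature smooth muscle, were at no more than 0.11 TPM. Des went the other way, at 0.48 and 0.70 TPM after Lkb1 siRNA, against 0.38 and 0.23 TPM after control siRNA, and did not pass (edgeR adjusted p = 0.473 without the block and 0.142 with it). Of the neuron markers only Tubb3, 1 of 5, was in the table, at 12.8 to 17.9 TPM after Lkb1 siRNA and 11.8 TPM after control siRNA (log2 fold change 0.32, edgeR adjusted p = 0.515 without the block and 0.0436 with it). Glial, epithelial and endothelial markers summed to at most 1.32 TPM in any library, and immune markers to 2.31 to 2.45 TPM after Lkb1 siRNA and 1.65 to 1.81 TPM after control siRNA. The part of these markers in the sterol gene differences was not tested.

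Among the regulators, Srebf2 and Insig1 fell in the blocked fit, and the other 4 did not pass. Srebf2, which encodes SREBP-2, was at 399.8 and 380.8 CPM in the Lkb1 siRNA libraries, against 430.3 and 437.8 CPM in the control siRNA libraries. Insig1, which retains SCAP and is itself a target of SREBP, was at 105.5 and 99.9 CPM after Lkb1 siRNA, against 120.9 and 116.8 CPM after control siRNA. Both genes were lower in both Lkb1 siRNA libraries. Srebf2 fell by 0.15 (SE 0.0653; edgeR adjusted p = 0.428 without the block and 0.0148 with it) and Insig1 by 0.21 (SE 0.068; 0.324 and 0.000994). Both calls were lost in DESeq2 with the block (adjusted p 0.372 for Srebf2 and 0.396 for Insig1).

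Srebf1, which encodes the SREBP-1 forms, was at 108.5 and 108.8 CPM in the Lkb1 siRNA libraries, against 115.5 and 112.7 CPM in the control siRNA libraries. Scap was at 94.3 and 92.8 CPM after Lkb1 siRNA, against 89.2 and 86.4 CPM after control siRNA. Both pairs of groups stood apart in CPM, in opposite directions, by less than 10% (log2 fold changes -0.07 and 0.09). Insig2, a relative of Insig1 with the same role, was at 62.6 and 58.8 CPM after Lkb1 siRNA, against 61.6 and 63.7 CPM after control siRNA, and its groups overlapped. Nr1h2, which encodes LXRβ, was at 50.6 and 50.5 CPM after Lkb1 siRNA, against 47.3 and 49.9 CPM after control siRNA. The 4 genes had 95% confidence intervals from -0.22 to 0.24 at their widest, and their edgeR adjusted p with the block lay between 0.267 and 0.683.

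The transport genes went both ways. Abca1, the exporter that hands cholesterol to apolipoproteins and a classic LXR target, was at 8.08 and 11.8 CPM in the Lkb1 siRNA libraries, against 6.49 and 7.16 CPM in the control siRNA libraries. Mylip, an LXR-induced ubiquitin ligase that marks lipoprotein receptors for breakdown, was at 19.2 and 18.6 CPM after Lkb1 siRNA, against 13.0 and 17.8 CPM after control siRNA. At the gene level both were higher in both Lkb1 siRNA libraries, but unevenly by batch. The log2 difference of Abca1 was 0.32 in batch 1 and 0.72 in batch 2, and that of Mylip was 0.56 in batch 1 and 0.07 in batch 2. Abca1 rose by 0.54 (SE 0.195, 95% confidence interval 0.10 to 0.98; edgeR adjusted p = 0.358 without the block and 0.00162 with it), and Mylip rose by 0.29 (SE 0.147; 0.5 and 0.0243). DESeq2 without the block called neither gene (adjusted p = 0.829 for Abca1), and with the block it gave neither an adjusted p. Single libraries weighed on both fold changes. Abca1 was at 0.245 without Lkb1 replicate 2, and Mylip at 0.09 without control replicate 1 and 0.535 without control replicate 2. The main transcript of Abca1, with 93.1% of its TPM, was at 0.90 and 1.86 TPM after Lkb1 siRNA. After control siRNA it was at 0.97 and 1.09 TPM, so the groups overlapped for that transcript (log2 fold change 0.35, SE 0.435). A second Abca1 transcript was listed at 0.36 TPM in the Lkb1 siRNA library of batch 1 and at 0 in the others.

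Npc1 and Npc2, which together move cholesterol out of lysosomes, were lower. Npc1, the membrane protein of the pair, was at 29.2 and 30.4 CPM in the Lkb1 siRNA libraries, against 34.7 and 34.8 CPM in the control siRNA libraries. Npc2, the soluble one, was at 279.7 and 308.8 CPM after Lkb1 siRNA, against 325.4 and 326.4 CPM after control siRNA. In CPM the groups did not overlap for either gene, and the control siRNA libraries were nearly equal. In TPM those of Npc2 overlapped, at 146.5 and 163.9 after Lkb1 siRNA, against 162.6 and 167.4 after control siRNA. Npc1 fell by 0.22 (SE 0.0847; edgeR adjusted p = 0.382 without the block and 0.0314 with it) and Npc2 by 0.15 (SE 0.0717; 0.488 and 0.0218). Both calls were lost in DESeq2 with the block (adjusted p 0.866 for Npc1 and 0.52 for Npc2), and the fold change of Npc2 was -0.075 without Lkb1 replicate 1. Stard4, a carrier of sterol between membranes, was at 92.0 and 89.5 CPM after Lkb1 siRNA, against 95.1 and 94.0 CPM after control siRNA, and did not pass either test (log2 fold change -0.06, SE 0.0659).

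No member passed the test between batches. Between batch 2 and batch 1, with group in the model, 12.9% of all genes differed (1579 genes by edgeR, either direction), whereas 0 of 30 members passed. At an unadjusted p under 0.05 there were 4 members, against 26.1% of all genes. The differences were largest for Abca1, higher in batch 2 by 0.37 (edgeR adjusted p = 0.0538), Tm7sf2 by 0.31 (0.171) and Mylip by 0.18 (0.216), and Abca1 passed with library size alone or at a mean of at least 5 CPM. Within each batch the median fold change of the enzymes was negative, -0.15 in batch 1 and -0.24 in batch 2, and 17 of 19 enzymes were lower in both batches. For the regulators and transport genes the medians were -0.05 in batch 1 and -0.07 in batch 2.

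**Figure D4:**
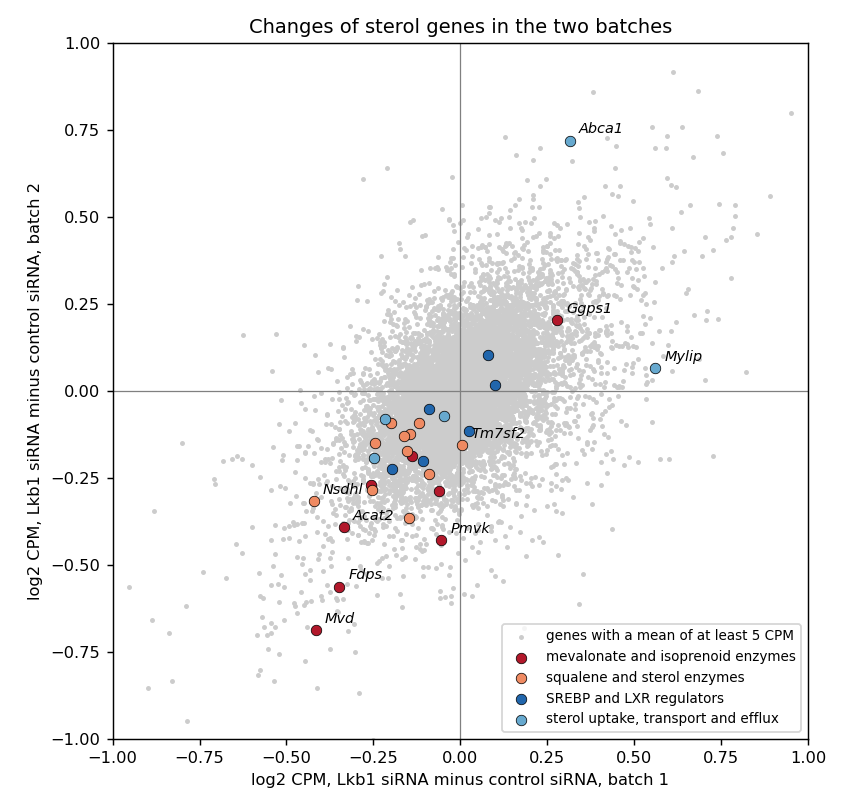
Log2 difference between Lkb1 siRNA and control siRNA in batch 1 (x axis) and in batch 2 (y axis). Large points are the 30 members by group, and grey points are all other genes with a mean of at least 5 CPM, of which those beyond 1 in either batch lie outside the axes. The enzymes cluster in the lower left, with Mvd and Fdps farthest out, Ggps1 and Abca1 lie in the upper right, and Mylip lies near 0 in batch 2.

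No transcript of a member passed the threshold. The transcript table held 101 transcripts of the members, of which 79 were tested, and edgeR called 0 of them with or without the block, as it did of all 34279 transcripts tested. At an unadjusted p under 0.05, 11 were lower and 2 higher, against 3.61% and 3.13% of all transcripts tested, and the lowest adjusted p among them was 0.687. The 2 higher ones, a transcript of Insig2 and another of Nr1h2, were under 1 TPM in every library and listed at 0 in both control siRNA libraries. The most abundant transcript was lower after Lkb1 siRNA for 24 of 30 members, and the same share over all genes was not counted. For Fdps it carried 94.3% of the gene's TPM and had a fold change of -0.46 (SE 0.0735). Srebf1 was spread over 3 main transcripts, with 60.1, 28.5 and 10.5% of its TPM, and their fold changes were -0.18, -0.00 and 0.42 with SEs of 0.122, 0.182 and 0.376. The files do not say which of them make the 1a or the 1c form.

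Neighbouring pathways gave context for the enzymes. For comparison, 49.8% of all genes tested were lower, and the blocked edgeR fit called 6.99% lower and 6.59% higher. Of 9 fatty acid enzymes known as targets of SREBP-1, 7 were lower, with a median fold change of -0.13, and 4 fell in the blocked fit. These were Scd1 and Scd2, desaturases that make monounsaturated fatty acids, Acss2, which makes acetyl-CoA from acetate, and Acaca, which makes malonyl-CoA. Acss2 was at 9.73 and 10.1 CPM in the Lkb1 siRNA libraries, against 12.4 and 15.3 CPM in the control siRNA libraries, and fell by 0.49 (SE 0.142; edgeR adjusted p with the block 0.000687). Scd1 fell by 0.26, Scd2 by 0.22 and Acaca by 0.14 (adjusted p with the block 3.51e-06, 5.67e-06 and 0.0302). DESeq2 with the block called Scd1 (adjusted p = 0.00703) and Scd2 (0.00489) and not Acaca (0.75), and gave Acss2 no adjusted p. Of 13 enzymes of protein prenylation, dolichol and ubiquinone synthesis, 8 were lower and 5 higher, with a median of -0.02, and only Pdss1, a ubiquinone side chain synthase, passed in the blocked fit (higher, edgeR adjusted p = 0.0249, and 0.866 by DESeq2 with the block). The smallest p-values of this list were those of Coq2, Rabggta, Pdss1 and Pggt1b, with log2 fold changes of -0.17, 0.22, 0.28 and 0.12. Of 17 tested genes of SREBP processing and sterol handling, 11 were lower and 6 higher, with a median of -0.02. The blocked fit called 1 of the 17 lower, and DESeq2 with the block called 0. Among the smallest p-values there were those of Mbtps2, a protease that releases SREBP, Erlin2 and Gramd1c, with log2 fold changes of -0.17, 0.135 and 0.23, and these 3 did not pass in the blocked fit. Without the block edgeR called 0 genes in each of these 3 lists, and DESeq2 without the block called none. At an unadjusted p under 0.05 edgeR without the block marked 3 fatty acid enzymes as lower and none of the other 2 lists. The same test marked 5.53% of all genes as lower and 5.61% as higher.

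Reads of some members could be shared with other genes. Exons of Fdft1 overlapped Ctsb by 774 bases, those of Cyp51 overlapped Akap9 by 166, those of Npc1 overlapped Rmc1 by 192 and those of Srebf1 overlapped Rai1 by 109, all on the opposite strand. Exons of Fdps overlapped the predicted gene Gm43738 by 1124 bases and those of Tm7sf2 overlapped Vps51 by 14, on the same strand. Whether the counting used strand is not given in the sources used here, so the values of Fdft1, Cyp51, Npc1 and Srebf1 carry that uncertainty. Strand could not separate the overlaps of Fdps and Tm7sf2, so their values are uncertain either way. Acat2 and Nr1h2 were the members with counts that were not whole, as happens where an estimate divides reads among features.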

How the data were processed

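Total RNA of 4 JoMa1.3 cultures was sequenced as read pairs of 150 bp. The authors' tools were RSEM 1.2.8, HISAT2 2.0.4 and Bowtie2 2.2.5, and the build GRCm39, per the submitters' processing notes, which give them no role or order. Per the file headers, the deposited tables hold read counts, TPM and FPKM. The deposited read counts are expected counts, since 5.73 to 5.97% of the values per library in the gene table had a fractional part. The deposited TPM and FPKM are the authors' own values relative to gene length. Another 4 columns of the gene table and 4 of the transcript table, of normalised read counts, were not used. A doubled decimal point in 24 and 45 of the cells used was read as 1 point.

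Counts were rounded and tested with edgeR 4.0.16 (R 4.3.3) by the robust quasi-likelihood F-test with TMM (factors 0.979 to 1.01) and the tool's filter (minimum count 10), adjusted by Benjamini-Hochberg over the genes that passed the filter (threshold 0.05). SE is the absolute log2 fold change over the square root of F. Alternatives used DESeq2 1.42.0, limma 3.58.1 on log2(FPKM + 1) and log2(FPKM + 0.1), other filters and scalings, a gene length trend, and each library left out. The labels give each culture number a shared batch, which pairs the libraries; deviations from group means correlated at 0.259 between libraries of a batch, and edgeR's common coefficient of biological variation was 6.39% without and 3.15% with the block. The labels do not say that cultures were independent beyond number and batch, so p-values may measure technical spread.

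The members and lists were chosen with earlier results of these data known. All 30 members, Stk11 and up to 4 genes with the smallest p of each neighbouring list were to be named; 1 of these is not reported here. For promoters the rule took enzymes with the core TCACNCCAC, which gave Hmgcs1 alone. Promoters come from RefSeq on GRCm38.p6, not the build of the files, and exon overlaps from a GENCODE annotation of GRCm38.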

Additional observations from a re-analysis of the deposited data

How the results depend on the processing

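Of 450 member fold changes under other settings, 387 kept their direction and side of the threshold, 58 newly passed it, 0 were lost and 5 reversed. None could be lost, because the fit without the block called no member. Abca1, Mylip and Tm7sf2 had no adjusted p in DESeq2 with the block and were counted there as kept by direction alone. Tm7sf2 ranged from -0.263 to 0.126 with a library left out (0.126 without control replicate 2, 0.026 without Lkb1 replicate 1). Insig2 ranged from -0.089 to 0.001 (0.001 without Lkb1 replicate 2), and was 0.007 in both limma fits. With the replicate block the calls numbered 854 genes lower and 806 higher, with 16 members lower and 3 higher; with the block and a length trend removed they were 882, 632, 16 and 3. DESeq2 with the block called 72 genes lower and 46 higher. Without the block, genes lower and higher, against 6 and 4, were 1 and 1 with the length trend removed. By library size alone they were 1 and 2, by DESeq2 31 and 18, and with any count kept 32 and 13. At a mean of at least 5 CPM they were 2 and 2, and in both limma fits 0 and 0. Leaving out a library gave 42 to 143 lower and 24 to 136 higher. Members called lower were 2 by DESeq2, 4 by DESeq2 with the block, 2 with any count kept (Mvd and Fdps) and 0 to 5 with a library left out, when Mvd and Fdps passed in each fit except that without Lkb1 replicate 2; members called higher were 0 to 1, Mylip without control replicate 2.

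The enzyme median ranged from -0.24 to -0.17 with a library left out. For squalene and sterol enzymes it was -0.18 with the length trend removed (with and without the block), -0.13 by library size, -0.17 with any count kept, -0.16 at 5 CPM, -0.13 in both limma fits, and -0.20 to -0.14 with a library left out. For regulators with transport, and for transport alone, it was -0.091 with the length trend removed (with and without the block), -0.027 by library size, -0.023 and -0.025 in the limma fits, and -0.075 to -0.037 with a library left out; transport without its members under 20 CPM, which leaves out Abca1 and Mylip, gave -0.15. For regulators it was -0.014 in both limma fits. The batch calls were 0 with group left out, and 1 member, Abca1, passed by library size or at 5 CPM. The looser core matched 2 members. The cause of these shifts was not tested. Precision is limited by 2 libraries a group from 1 cell line, and a fit with a library left out assumes that the lone library varies like the others.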
